A study of Mus musculus with 4 samples.

Results

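The glycolysis and hypoxia genes described here are 32 mouse genes listed by symbol, and all 32 were found among the 31053 features counted in the series. They are the glucose transporter gene Slc2a1, 12 genes of glycolytic enzymes, 2 genes of enzymes that set fructose 2,6-bisphosphate, 3 genes that decide the fate of pyruvate and lactate, the oxygen-regulated factor gene Hif1a with 2 of its prolyl hydroxylases, 3 genes of secreted products, 3 genes of mitochondrial proteins and 5 other genes known to respond to low oxygen. The cells came from tumours grown from TC-1 cells, a mouse lung epithelial tumour line, of which 300000 had been placed under the skin of wild-type C57/bl6 mice. When a tumour had reached 40 mm², its mouse received PBS or cisplatin, which crosslinks DNA, once into the peritoneum at 6 mg/kg. The 4 groups were PBS and tumours collected on days 1, 3 and 7 after cisplatin, with 1 droplet library (10x 3′ chemistry) in each. All groups carry the TC-1 tumour, the labels give neither the number of mice behind a library nor a collection day for PBS, and 1 label field calls the PBS source untreated.

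Glycolysis turns glucose into pyruvate and yields ATP without oxygen, and lactate made from pyruvate leaves the cell through monocarboxylate transporters. In low oxygen the prolyl hydroxylases Egln1 and Egln3 stop marking HIF-1α, the product of Hif1a, for destruction, and the stabilised factor raises transcription of glycolytic genes, of Vegfa and of genes that slow mitochondrial use of oxygen. In macrophages the same genes also respond to inflammatory signals and to lactate, and T cells switch to glycolysis when they are activated.

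After filtering, the libraries of PBS and of days 1, 3 and 7 after cisplatin held 7425, 6841, 4715 and 2705 cells with median depths of 6162, 8769, 6045 and 5039 UMIs (unique molecular identifiers, each counting 1 captured mRNA). Pairs of libraries shared between 3 and 19 cell barcodes. The sort was for CD45+, lineage-negative, CD90+ and CD127+ cells, a gate for innate lymphoid cells, but 91.5, 74.7, 68.3 and 77.2% of the kept cells held, in the same order, at least 2 of 4 macrophage marker genes with at most 1 lymphocyte marker UMI. These 6796, 5113, 3221 and 2089 cells are the macrophages below. Lymphocytes were cells with at least 5 UMIs of T cell and natural killer markers from at least 2 of those genes. They also held at most 1 of the 4 macrophage marker genes and numbered 147, 273, 440 and 150. Cells without a UMI of Ptprc, the gene of CD45, and with at least 2 UMIs of Cdkn2a were taken as candidates for tumour-like cells. They held at most 1 lymphocyte marker UMI, were left out of the macrophages and numbered 35, 26, 2 and 89. In that gate Krt7, Krt8, Krt18, Krt19 and Epcam had no UMI in the 3 libraries with at least 20 such cells, so the epithelial markers do not bear out the label, and these cells are called Cdkn2a-positive Ptprc-negative cells. Levels are in CPM, the UMI count of a gene scaled to the same total in every gate and library, and where 4 values follow each other they belong to PBS and to days 1, 3 and 7 in this order.

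Macrophages that held Arg1, the gene of arginase 1, with at least 3 UMIs of Arg1 and the chemokine gene Cxcl3 together had higher levels of nearly all members than the other macrophages of the same libraries. Of the 31 members that could be tested, 29 rose, 1 fell and 1 did not pass the test, where 5.39% of all 10982 genes tested rose and 3.78% fell (edgeR quasi-likelihood test with library as a block, Benjamini-Hochberg adjusted p under 0.05, 4 libraries). The median log2 ratio was 0.76 over the members and -0.02 over all genes tested. In every one of the 4 libraries 27 members were higher. The gate held 254, 407, 152 and 84 cells in PBS and on days 1, 3 and 7, and Adm, the gene of the vessel-relaxing peptide adrenomedullin, was too low to be tested. Arg1 and Cxcl3 are no members, but Arg1 is itself known as a gene that HIF-1α raises in mouse macrophages. Here as in the other gate comparisons the libraries differ in treatment. The p-values test the mean gate difference over them and do not measure how far it varied.

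**Figure D1:**
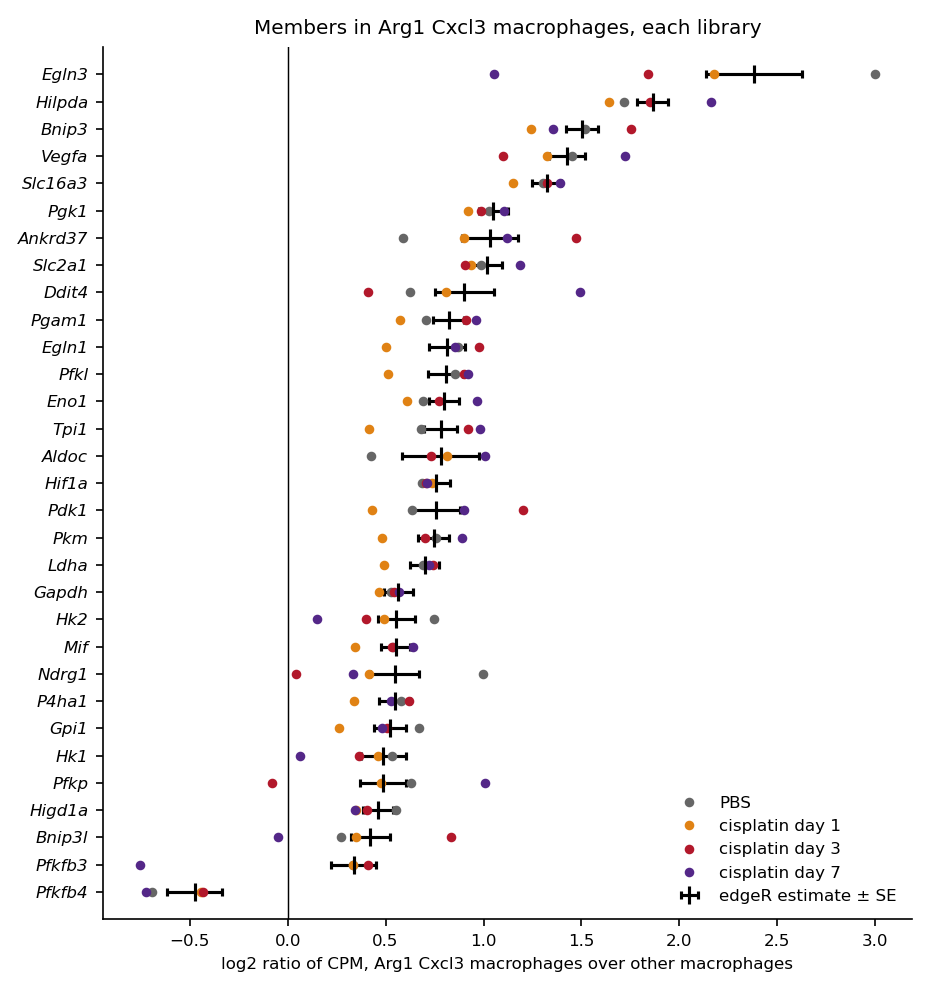
Log2 ratio of CPM in Arg1 Cxcl3 macrophages over the other macrophages for the 31 members tested, with 1 point per library and the edgeR estimate ± SE as a black bar. Egln3, Hilpda, Bnip3, Vegfa and Slc16a3 have the 5 largest estimates, and Pfkfb4 is below 0 in all 4 libraries.

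The 5 largest differences were in Egln3, Hilpda, Bnip3, Vegfa and Slc16a3, none of which codes for a glycolytic enzyme. Other members outside these enzymes differed less, and Bnip3l and Higd1a had smaller ratios than every glycolytic enzyme gene. Sequences of 300 bases from 250 before to 50 after the transcription start are shown for the 5 members with the largest ratios and for Pfkfb4, the member that fell. They are from RefSeq on GRCm38.p6 and written 5′ to 3′ on the strand of the gene. Capitals mark ACGTG, the core of the HIF binding site known as the hypoxia response element, and the related GCGTG, each on either strand (CACGT and CACGC on the other).
Egln3, chr12:54203825-54204124, minus strand: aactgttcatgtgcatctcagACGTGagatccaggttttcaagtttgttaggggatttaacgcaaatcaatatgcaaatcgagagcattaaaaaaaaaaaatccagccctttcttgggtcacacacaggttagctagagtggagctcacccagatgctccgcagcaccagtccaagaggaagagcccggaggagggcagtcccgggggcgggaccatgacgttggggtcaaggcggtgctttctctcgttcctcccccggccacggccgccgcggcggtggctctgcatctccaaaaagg
Hilpda, chr6:29272238-29272537, plus strand: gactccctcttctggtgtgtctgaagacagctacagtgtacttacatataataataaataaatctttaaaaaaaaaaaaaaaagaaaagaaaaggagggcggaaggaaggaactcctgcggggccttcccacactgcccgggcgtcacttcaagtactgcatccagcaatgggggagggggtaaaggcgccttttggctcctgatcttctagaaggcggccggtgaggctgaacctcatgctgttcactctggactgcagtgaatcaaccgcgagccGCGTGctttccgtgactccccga
Bnip3, chr7:138909457-138909756, minus strand: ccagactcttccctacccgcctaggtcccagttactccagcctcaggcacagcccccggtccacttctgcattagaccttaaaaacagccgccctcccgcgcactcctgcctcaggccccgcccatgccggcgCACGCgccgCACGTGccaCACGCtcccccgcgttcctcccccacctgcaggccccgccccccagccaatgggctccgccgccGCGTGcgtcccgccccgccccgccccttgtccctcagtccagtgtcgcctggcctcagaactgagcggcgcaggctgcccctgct
Vegfa, chr17:46032328-46032627, minus strand: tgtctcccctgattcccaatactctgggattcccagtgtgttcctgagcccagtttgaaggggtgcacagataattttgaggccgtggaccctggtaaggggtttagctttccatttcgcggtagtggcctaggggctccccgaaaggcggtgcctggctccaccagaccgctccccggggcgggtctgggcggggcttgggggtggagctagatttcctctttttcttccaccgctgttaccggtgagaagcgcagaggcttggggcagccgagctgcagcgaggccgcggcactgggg
Slc16a3, chr11:120948817-120949116, plus strand: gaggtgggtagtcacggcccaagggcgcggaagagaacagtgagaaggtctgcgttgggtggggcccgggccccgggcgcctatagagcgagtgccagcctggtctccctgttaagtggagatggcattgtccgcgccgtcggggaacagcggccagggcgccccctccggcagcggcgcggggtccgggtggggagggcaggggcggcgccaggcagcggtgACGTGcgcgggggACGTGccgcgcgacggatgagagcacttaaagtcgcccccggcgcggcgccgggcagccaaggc
Pfkfb4, chr9:108991652-108991951, plus strand: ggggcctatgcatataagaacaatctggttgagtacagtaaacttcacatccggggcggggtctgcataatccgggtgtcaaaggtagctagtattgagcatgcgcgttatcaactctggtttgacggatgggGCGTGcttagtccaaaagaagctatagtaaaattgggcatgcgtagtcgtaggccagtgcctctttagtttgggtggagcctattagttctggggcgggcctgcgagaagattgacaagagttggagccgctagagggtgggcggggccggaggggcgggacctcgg

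In these windows Egln3 holds 1 ACGTG, Slc16a3 holds 2, and Bnip3 holds the palindrome CACGTG, which counts once on each strand, beside 3 GCGTG. Hilpda and Pfkfb4 hold 1 GCGTG each, and Vegfa holds neither. Each gene has 1 window, at its most upstream listed start, and sites outside the windows were not looked for. Entries existed for 30 of the 32 members, all but Bnip3l and Ndrg1. ACGTG stood in 18 of the 30 windows (60.0%), against 19.6% of the windows of all 27025 genes and 26.5% of those of the 8565 other genes tested in the Arg1 Cxcl3 comparison. Among the 426 other genes with a window that rose in Arg1 Cxcl3 macrophages the share was 26.1%. GCGTG stood in 18 member windows (60.0%), against 32.5% of all genes and 52.6% of the other genes tested. Median GC content was 65.0% in the member windows, against 52.7% and 61.0% in those 2 sets, and its part in the motif counts was not tested.

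Among the hypoxia targets, Vegfa, which codes for the main growth factor of blood vessels, stood at 215, 324, 496 and 468 CPM in Arg1 Cxcl3 macrophages in PBS and on days 1, 3 and 7, against 78.7, 129.7, 232 and 142 in the other macrophages. Vegfa was higher in the gate within each library, and the log2 ratio was 1.43 ± 0.09 (SE, adjusted p = 1.07e-08, edgeR). Hilpda, whose protein blocks lipid droplet breakdown, reached 317, 301, 554 and 405 in the gate, against 96.7, 96.7, 154 and 90.6 outside it, a log2 ratio of 1.86 ± 0.08 (adjusted p = 8.44e-11, edgeR). Bnip3, a receptor gene for the removal of mitochondria, was at 198, 138, 170.0 and 225 in the gate, against 69.1, 58.4, 50.4 and 88.1, a log2 ratio of 1.5 ± 0.08 (adjusted p = 2.26e-09, edgeR). Its paralog Bnip3l differed less, at 88.6, 113, 119 and 104 against 73.5, 88.9, 66.9 and 108 (log2 0.42), and on day 7 it was lower in the gate. Egln3 is sparse, with 47, 73, 17 and 2 UMIs in the gate, and its level was 21.5, 15.6, 13.8 and 3.26, against 2.68, 3.46, 3.84 and 1.57 outside (log2 2.38 ± 0.25, adjusted p = 4.24e-06, edgeR). Egln1, the main oxygen sensor of the family, was at 82.7, 66.2, 76.9 and 96.3 in the gate, against 45.3, 46.7, 39.0 and 53.3 (log2 0.81). The mRNA of Hif1a itself, which is regulated mostly as a protein, was at 200.1, 279, 262 and 163 in the gate, against 124, 167, 160.1 and 99.7 (log2 0.76 ± 0.07, adjusted p = 1.74e-06, edgeR).

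Ankrd37, a small HIF target gene of uncertain function, had 22.8, 24.4, 45.3 and 24.5 CPM in Arg1 Cxcl3 macrophages in PBS and on days 1, 3 and 7, against 15.2, 13.1, 16.4 and 11.3 in the others (log2 1.03). Ndrg1, a stress-responsive gene, had 95, 95.2, 87.4 and 32.6 against 47.7, 71.4, 85.0 and 25.9 (log2 0.55), and in the day 3 library the levels were nearly equal. For P4ha1, a collagen prolyl hydroxylase subunit gene, levels were 87.7, 99.2, 110.1 and 75.1 in the gate, against 58.7, 78.5, 71.8 and 52.1 (log2 0.55). Ddit4, whose product REDD1 restrains mTOR signalling, had 11, 33.9, 19.4 and 68.5 in the gate, against 7.11, 19.4, 14.6 and 24.4 (log2 0.90 ± 0.15, adjusted p = 0.000662, edgeR), with its widest gap on day 7. Higd1a, a mitochondrial inner membrane gene, had 198, 159, 199 and 197 against 135, 125, 151 and 156, and the cytokine gene Mif had 1153, 684, 856 and 901 against 794, 539, 591 and 578 (log2 0.46 and 0.55).

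At the entry of glucose, Slc2a1, which codes for the transporter GLUT1, was at 93.2, 118, 166 and 58.7 CPM in Arg1 Cxcl3 macrophages in PBS and on days 1, 3 and 7, against 47.0, 61.9, 88.6 and 25.8 in the others (log2 1.02 ± 0.08, adjusted p = 1.52e-07, edgeR). At the exit of lactate, Slc16a3, the gene of the exporter MCT4, was at 188, 173, 284 and 171, against 76.0, 77.7, 113 and 65.3 (log2 1.32 ± 0.07, adjusted p = 2.26e-09, edgeR). Both ends of the pathway were higher in the gate in each library. Ldha, which codes for the lactate dehydrogenase subunit that makes lactate, was at 1105, 655, 862 and 1116 in the gate, against 684, 465, 515 and 678 (log2 0.70). Pdk1, whose kinase keeps pyruvate out of mitochondria, was at 44.8, 35.1, 39.7 and 42.4, against 28.8, 26.1, 17.3 and 22.7 (log2 0.76).

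All 12 glycolytic enzyme genes rose, with log2 ratios between 0.49 for Pfkp and 1.05 for Pgk1. Pgk1, a kinase gene of an ATP-yielding step, was at 877, 563, 603 and 645 CPM in the gate in PBS and on days 1, 3 and 7, against 429.7, 298, 304 and 299.9 outside (log2 1.05 ± 0.07, adjusted p = 4.11e-08, edgeR). Pgam1 stood at 880.2, 612, 819 and 600.5 against 539, 411, 436 and 308, and Eno1, the enolase gene, at 469, 385, 349 and 1137 against 289.8, 252, 204 and 583. Those 3 genes code for consecutive steps, and each was higher in the gate in all 4 libraries. Tpi1 was at 836, 507, 762 and 754 in the gate, against 521, 381, 403 and 381. Gapdh was at 3052, 2224, 2709 and 2134, against 2115, 1611, 1859.9 and 1439.5. Pkm, whose enzyme makes pyruvate, was at 1804, 1219.9, 1574 and 1761, against 1067, 873, 968 and 949. Gapdh, often used as an unchanging standard, thus differed by 0.57 on the log2 scale (SE 0.07, adjusted p = 6.22e-05, edgeR). Several of these genes have processed copies elsewhere in the genome, and how reads shared with copies were counted is not given in the sources used here.

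Among the upstream enzymes, Hk1 was at 37.5, 37.3, 36.4 and 17.9 CPM in Arg1 Cxcl3 macrophages, against 25.9, 27.1, 28.3 and 17.2 in the others, and Hk2, the inducible hexokinase gene, was at 76.3, 114, 77.7 and 57.1, against 45.5, 80.9, 59.0 and 51.4. Gpi1 was at 520.3, 355, 362 and 326, against 327, 296, 255 and 234. The phosphofructokinase genes were at 80.4, 68.4, 87.4 and 91.4, against 44.5, 48.0, 46.9 and 48.2, for Pfkl and at 89.1, 76.3, 83.4 and 45.7, against 57.5, 54.9, 88.1 and 22.7, for Pfkp, which was lower in the gate on day 3. Aldoc, an aldolase gene, was sparse, at 7.31, 12.4, 11.3 and 11.4 against 5.43, 7.08, 6.83 and 5.67. The members that did not follow were the 2 bifunctional regulators of phosphofructokinase. Pfkfb3 was at 41.6, 61.7, 64.0 and 14.7, against 33.0, 49.0, 48.1 and 24.8, and did not pass the test (log2 0.34 ± 0.12, adjusted p = 0.0823, edgeR). Pfkfb4 fell, to 12.3, 15.0, 14.6 and 13.1, against 19.9, 20.4, 19.7 and 21.6 (log2 -0.48 ± 0.14, adjusted p = 0.0434, edgeR), but this fall did not pass with DESeq2, with stricter gates, with doublets kept, without any 1 of the libraries or after thinning (log2 -0.09).

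Genes of the same pathways outside the 32 were tested in the same fit. Of 29 further HIF and hypoxia genes tested, 10 rose and 1 fell, among them Ero1l (1.21), Hmox1 (1.17), Selenbp1 (1.07) and Gys1 (0.97 on the log2 scale). Of 14 further glycolysis genes 3 rose and 2 fell, with Pgm2 at 0.85 and Aldoa at 0.75 but Slc2a6 at -1.38 and Ldhb, the other lactate dehydrogenase subunit, at -0.81. None of 15 genes for pyruvate entry and the pentose phosphate pathway passed the edgeR test, and of 25 nuclear genes of oxidative phosphorylation 1 fell and none rose.

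Arg1 Cxcl3 macrophages were deeper than the others, with medians of 7906, 10470.0, 7718 and 6714 UMIs per cell in PBS and on days 1, 3 and 7, against 6292, 9014, 6515 and 5316. When every cell was thinned to 3000 UMIs before gating, 27 members rose and none fell. The share of mitochondrial counts was 2.55, 2.86, 1.97 and 1.48% in the gate, against 3.04, 3.46, 2.64 and 1.89%. The summed level of neutrophil markers was 19.2, 139.5, 61.5 and 22.8 CPM, against 16.2, 50.7, 49.4 and 24.8, and its part in the result was not tested. Without the library term no member passed the test.

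**Figure D2:**
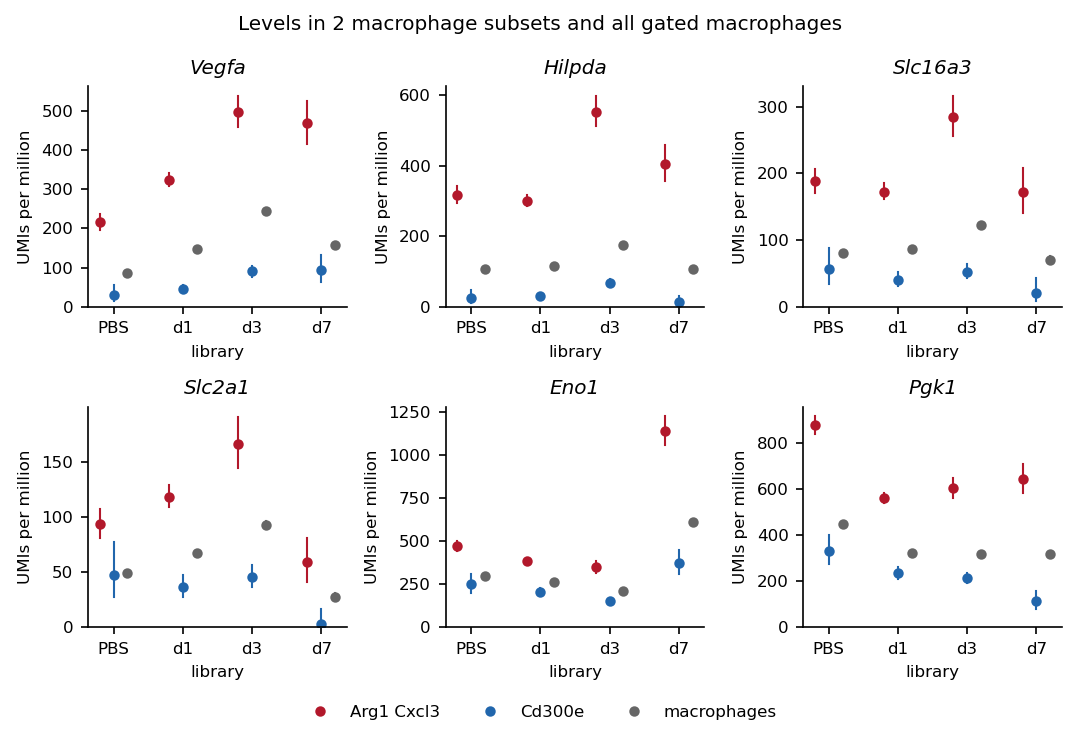
CPM of 6 members in Arg1 Cxcl3 macrophages (red), Cd300e macrophages (blue) and all gated macrophages (grey) of each library (d1, d3 and d7 are days after cisplatin), with exact Poisson 95% intervals as lines. Red points stand above grey and blue points in every panel and library, and Eno1 is highest in the day 7 library in all 3 sets.

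Cd300e macrophages, gated on Cd300e, Klra17 and Fcrl5, lay on the other side. Of 31 members tested none rose and 19 fell (edgeR, adjusted p under 0.05), where 5.61% of all genes rose and 5.9% fell, and the median log2 ratio over the members was -0.51. None was higher in all 4 libraries, and 20 were lower in all of them. Hilpda was at 23.7, 30.2, 66.5 and 12.1 CPM in the 44, 134, 202 and 53 gated cells in PBS and on days 1, 3 and 7, against 107, 118, 184 and 109 in the other macrophages (log2 -1.80 ± 0.16, adjusted p = 6.91e-08, edgeR). Vegfa was at 29.6, 44.7, 90.0 and 93.5, against 85.3, 150.5, 259 and 160.3 (log2 -1.43 ± 0.13), and Bnip3 at 50.4, 23.0, 23.4 and 27.1, against 75.1, 66.9, 59.5 and 97.0 (log2 -1.31 ± 0.17). Further fallen members were Ankrd37 (-1.30), Ndrg1 (-1.27), Slc16a3 (-1.12), Hif1a (-0.93), Slc2a1 (-0.88), Ddit4 (-0.86) and Pgk1 (-0.65). Without the day 1 library 10 members fell, after thinning to 3000 UMIs 8 fell, and without the library term none passed.

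Cx3cr1 macrophages, gated on Cx3cr1, Fcrls and Hpgd, showed the same direction in the 3 libraries with enough of them. Of 31 members 19 fell and none rose (edgeR), beside 7.9% of all genes that fell and 5.93% that rose. Vegfa was at 40.3, 47.3 and 69.1 CPM in the gate in the PBS, day 1 and day 7 libraries, against 87.9, 155 and 163 (log2 -1.43 ± 0.10, adjusted p = 1.41e-08, edgeR). Hilpda was at 50.7, 46.0 and 60.8, against 111, 121 and 109 (log2 -1.21 ± 0.09), and Slc2a1 at 30.1, 33.7 and 21.4, against 50.4, 69.6 and 27.8 (log2 -0.87 ± 0.11). After thinning 12 fell, and without the library term none passed. Resident-like macrophages, with Cd163 and Folr2, had 6 of 31 members lower and none higher (edgeR), beside 5.68% of all genes lower and 4.27% higher. Those 6 were Vegfa, Slc2a1, Pfkfb3, Slc16a3, Hk2 and Mif. Vegfa was at 38.4, 70.0 and 80.7 in the PBS, day 1 and day 7 libraries, against 85.7, 152 and 161 (log2 -1.16 ± 0.11, adjusted p = 3.41e-08, edgeR). The count for this gate was 1 without the day 1 library and 2 after thinning or with DESeq2.

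**Figure D3:**
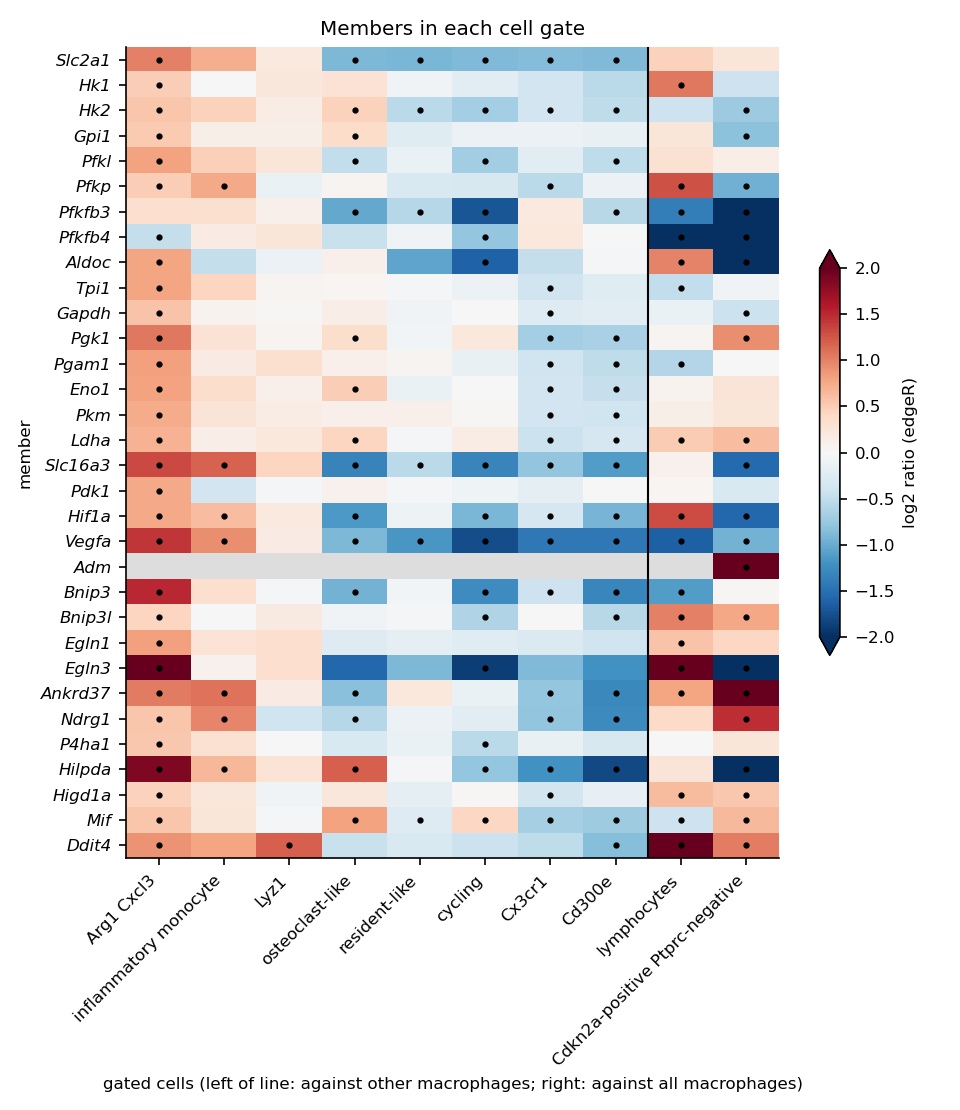
Log2 ratio of each of the 32 members (rows) in 10 cell gates (columns), from edgeR with library as a block, where red is higher in the gate, dots mark adjusted p under 0.05, grey was not tested and colours stop at 2 and -2. Columns left of the line are macrophage subsets against other macrophages, and those right of it are set against all macrophages. Aldoc had no UMI in the Cdkn2a-positive Ptprc-negative cells, so its fitted value there is no measured fold, and in that column Gapdh turns to above 0 with total counts in place of TMM.

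Macrophages with Ctsk and Acp5, genes of osteoclasts, were called osteoclast-like and differed in both directions. In the PBS, day 1 and day 3 libraries 7 members rose and 9 fell (edgeR), where 16.0% of all genes rose and 15.9% fell. Hilpda was at 243, 209.9 and 398 CPM in the gate, against 101, 107 and 164 (log2 1.20 ± 0.12, adjusted p = 0.000217, edgeR), and Mif at 1362, 779 and 1169, against 786, 532 and 578 (log2 0.81 ± 0.12). Slc16a3 was at 36.1, 47.5 and 22.0, against 83.1, 89.6 and 127 (log2 -1.34 ± 0.25, adjusted p = 0.00359, edgeR), so the lactate exporter gene fell where the lipid droplet gene rose. Of the 25 nuclear genes of oxidative phosphorylation 24 rose in this gate, with a median log2 ratio of 0.86, led by Atp5b (1.21) and Cycs (1.13). These cells were deeper than the others, with medians of 13100.5, 16757 and 20792 UMIs in the PBS, day 1 and day 3 libraries, against 6281, 8969.5 and 6552. After thinning 1 member rose and 3 fell, and the oxidative phosphorylation genes were not compared after thinning. With total counts and no TMM 5 members rose and 11 fell.

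Cycling macrophages, gated on Mki67, Top2a and Birc5, had 14 of 31 members lower and 1 higher (edgeR), where 26.7% of all genes fell and 22.5% rose. Vegfa was at 45.3, 52.6, 43.0 and 64.0 CPM in the gate in PBS and on days 1, 3 and 7, against 100.1, 158, 263 and 174 (log2 -1.78 ± 0.22, adjusted p = 0.000359, edgeR). Pfkfb3 was at 15.1, 16.0, 10.9 and 14.2, against 40.4, 54.1, 52.2 and 25.9 (log2 -1.71 ± 0.18). Mif was the member that rose, at 994, 737, 938 and 825, against 740.2, 531, 577 and 557 (log2 0.41 ± 0.07, adjusted p = 0.00257, edgeR), but not after thinning, where its log2 ratio was -0.0006. With total counts and no TMM, which shifts the median of all genes by 0.13, 3 members rose and 14 fell. Oxidative phosphorylation genes were higher here for 14 of 25 and lower for 1, and were not compared after thinning. Cycling macrophages were deeper, with medians of 10218, 19028.5, 16395.5 and 9055.5 UMIs, against 5856, 8952, 6478 and 5136.

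Inflammatory monocytes, gated on Ly6c2 and Plac8, numbered 48, 653 and 22 in the day 1, day 3 and day 7 libraries. In these libraries 7 members were higher and none lower (edgeR), where 3.81% of all genes rose and 2.1% fell. The higher members were Slc16a3, Ankrd37, Ndrg1, Vegfa, Pfkp, Hilpda and Hif1a. Slc16a3 was at 328, 164 and 149 CPM in the gate, against 84.2, 113 and 69.8 (log2 1.19 ± 0.22, adjusted p = 0.000132, edgeR), and Vegfa at 483, 227 and 395, against 144, 249.9 and 156 (log2 0.92 ± 0.22), with the day 3 library going the other way. The count rests on the day 1 library, without which none passed, and DESeq2 called 2. Lyz1 macrophages, with Lyz1, F13a1 and Fn1, had 1 member higher, Ddit4, at 13.8, 20.6 and 227 in the PBS, day 1 and day 7 libraries, against 7.15, 20.7 and 24.1 (log2 1.20 ± 0.23, adjusted p = 3.87e-05, edgeR), beside 0.808% of all genes. It was higher in the gate in the PBS and day 7 libraries but not on day 1, day 7 rests on 20 cells with 34 UMIs, and DESeq2 called no member. Nos2 macrophages had at least 20 cells in only 2 libraries and were not tested.

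Lymphocytes had a different selection of members from macrophages. Of 31 tested 11 rose and 7 fell (edgeR, 4 libraries), where 23.6% of all genes rose and 25.7% fell, so calls are common in this comparison. Egln3 was at 82.2, 55.3, 27.4 and 19.1 CPM in lymphocytes in PBS and on days 1, 3 and 7, against 3.54, 4.56, 4.37 and 1.66 in macrophages (log2 3.54 ± 0.31, adjusted p = 1e-06, edgeR). Ddit4 was at 130.4, 167, 70.7 and 129, against 7.29, 20.7, 14.9 and 26.6 (log2 2.84 ± 0.27, adjusted p = 1.75e-06, edgeR). Hif1a was at 402, 486, 389.5 and 200.4, against 128, 178, 165 and 103 (log2 1.31 ± 0.15, adjusted p = 7.7e-06, edgeR). For all 3 genes the levels of the 2 cell sets were apart in every library.

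Among pairs of paralogs, Bnip3l and Bnip3 went opposite ways, Egln1 and Egln3 both rose, Pfkfb3 and Pfkfb4 both fell, and of Hk1 and Hk2 and of Pfkp and Pfkl only the first passed the test. Hk1 was at 51.0, 56.3, 48.5 and 59.6 CPM in lymphocytes in PBS and on days 1, 3 and 7, against 26.4, 28.0, 28.7 and 17.2 in macrophages (log2 1.05 ± 0.18, adjusted p = 0.000407, edgeR), while Hk2 was at 56.7, 64.1, 48.5 and 16.7, against 46.9, 83.9, 60.0 and 51.7, and did not pass the test (log2 -0.42 ± 0.22, adjusted p = 0.13, edgeR). Pfkp was at 153, 149, 148 and 88.3, against 58.9, 56.9, 87.9 and 23.9 (log2 1.27 ± 0.17, adjusted p = 3.74e-05, edgeR), and Pfkl at 68.0, 62.1, 49.6 and 74.0, against 46.2, 49.8, 49.0 and 50.4, without passing (log2 0.30 ± 0.15, adjusted p = 0.127, edgeR). Bnip3l, known for clearing mitochondria in maturing blood cells, was at 176, 206, 151 and 162, against 74.2, 91.1, 69.6 and 108 (log2 1.01 ± 0.15), and Bnip3 at 31.2, 43.7, 23.9 and 33.4, against 75.0, 65.6, 56.7 and 95.1 (log2 -1.12 ± 0.19). Lower in lymphocytes were also Vegfa, at 48.2, 32, 43.2 and 115 against 84.9, 147, 246 and 158 (log2 -1.64 ± 0.29), Pfkfb3 (-1.38), Pfkfb4 (-2.25), Pgam1 (-0.58), Tpi1 (-0.49) and Mif (-0.42). Higher were also Ldha (0.52), Higd1a (0.63), Egln1 (0.57), Ankrd37 (0.79) and Aldoc (0.99). Outside the members, Slc2a3, the gene of the glucose transporter GLUT3, was higher by 4.76 and Hk3 lower by a log2 ratio of -2.89. Rora and Hmox1 had log2 ratios of 5.12 and -2.66.

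**Figure D4:**
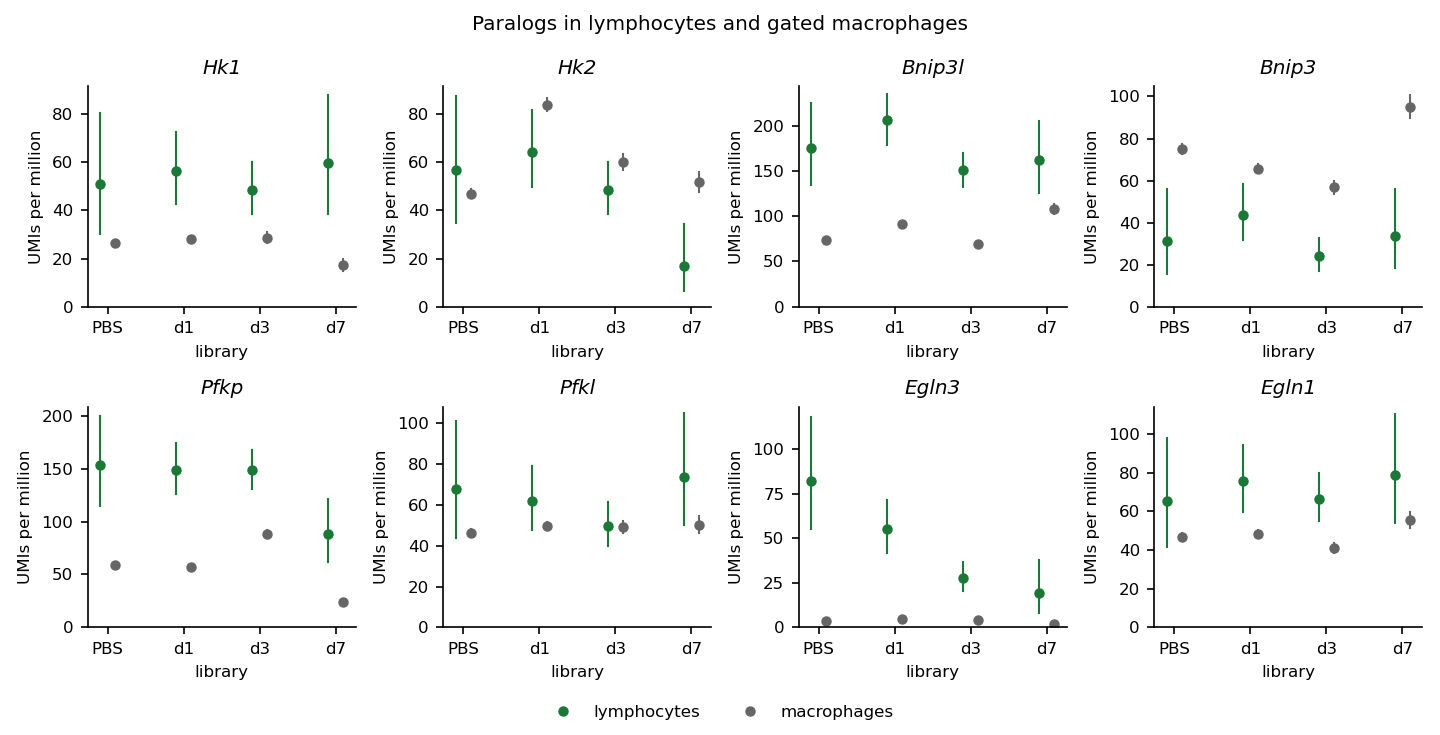
CPM of 4 pairs of paralogs in lymphocytes (green) and gated macrophages (grey) of each library (d1, d3 and d7 are days after cisplatin), with exact Poisson 95% intervals as lines. Hk1, Bnip3l, Pfkp and Egln3 are higher in lymphocytes in all 4 libraries, and Bnip3 is lower in all 4.

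Lymphocytes carried macrophage marker RNA at 13.7, 15.1, 9.26 and 10.8% of the level in macrophages in PBS and on days 1, 3 and 7. They were shallower, with medians of 2168, 3476, 3365 and 2479.5 UMIs against 6339, 9152, 6609 and 5354. With only the lymphocytes in which macrophage markers made up at most 1% of the cell's own UMIs, 11 members rose and 7 fell. The summed marker level of all lymphocytes, 5093, 6667, 2958 and 5147 CPM, was already under that limit. It is therefore a weak cut, and the part of macrophage RNA in the result was not tested. To compare shares at a matched depth, cells were thinned to 2000 UMIs, which left out 61, 39, 42 and 48 lymphocytes and 273, 201, 237 and 212 macrophages with fewer. Egln3 was then found in 17.4, 9.83, 4.52 and 2.94% of lymphocytes, against 0.751, 1.04, 1.14 and 0.426% of macrophages. For lymphocytes the exact binomial 95% interval was 10.1 to 27.1% in PBS and 0.611 to 8.36% on day 7. Unthinned shares were 13.6, 15.0, 7.73 and 3.33% of lymphocytes and 2.21, 3.46, 2.58 and 0.862% of macrophages. Within lymphocytes, regulatory T cells (Foxp3) had Egln3 at 69.2, 89.4, 82.9 and 72.4 CPM from 8, 36, 34 and 7 UMIs, Ddit4 at 207, 278, 161 and 352 and Hif1a at 545, 762, 717 and 434 in PBS and on days 1, 3 and 7. Egln3 in all lymphocytes was lower on day 3 and day 7 than in PBS, by log2 -1.58 (interval -2.28 to -0.86) and -2.11 (interval -3.45 to -0.94), among lymphocytes that held 44, 100, 117 and 31 regulatory T cells in PBS and on days 1, 3 and 7.

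The Cdkn2a-positive Ptprc-negative cells were compared with macrophages in the PBS, day 1 and day 7 libraries, day 3 having only 2 of them. The split of rises and falls here depended on scaling. With TMM 9 of 32 members rose and 12 fell (edgeR), where 23.4% of all genes rose and 31.6% fell. With total counts and no TMM, which shifts the median of all genes by 0.45 on the log2 scale, 18 rose and 6 fell, where 35.7% of all genes rose and 21.5% fell. By CPM 18 members were higher and 8 lower in each of the 3 libraries. Log2 ratios below are with TMM, and the calls hold under both scalings unless it is said. Ankrd37 was at 95.7, 85.1 and 96.5 CPM in these cells, against 15.5, 14.1 and 11.9 in macrophages (log2 2.30 ± 0.20, adjusted p = 1.8e-07, edgeR). Ndrg1 was at 171, 182 and 169, against 49.8, 73.6 and 26.3 (log2 1.47 ± 0.21, adjusted p = 3.19e-05, edgeR), and Pgk1 at 905, 973 and 926, against 450.1, 322 and 317 (log2 0.93 ± 0.14, adjusted p = 5.67e-05, edgeR). These 3 genes were higher in each of the 3 libraries. Ldha was at 1353, 1015 and 1584, against 704, 482 and 700.1 (log2 0.61 ± 0.12), Mif at 1515, 1249.8 and 1369.6, against 811, 552 and 594 (log2 0.64 ± 0.12), and Higd1a at 269, 192 and 414, against 138, 128 and 158 (log2 0.54 ± 0.16). Adm, near absent from macrophages, was at 2.28, 3.34 and 15.9, against 0.167, 0.446 and 1.08 (log2 3.11 ± 0.63, adjusted p = 0.000683, edgeR), from 1, 2 and 17 UMIs. Bnip3l (0.78) and Ddit4 (1.03) were the other members that rose.

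On the lower side, Hilpda was at 38.7, 18.4 and 38.4 CPM in the Cdkn2a-positive Ptprc-negative cells of the PBS, day 1 and day 7 libraries, against 107, 115 and 107 (log2 -2.24 ± 0.23, adjusted p = 8.36e-07, edgeR). Slc16a3 was at 29.6, 35.0 and 43.1, against 81.1, 86.3 and 70.7 (log2 -1.55 ± 0.21), and Hif1a at 75.2, 68.4 and 45, against 128, 178 and 103 (log2 -1.58 ± 0.18). Vegfa was at 95.7, 71.7 and 108, against 84.9, 147 and 158, and fell with TMM only (log2 -0.94 ± 0.20, and -0.49 with total counts). Pfkfb3 had 3 UMIs in all in these cells (pooled log2 ratio -4.82, counting interval -7.09 to -3.27) and Egln3 had 1, and the fall of Egln3 also passed with TMM only. Aldoc had none and was at least 4.57-fold lower, taking 3 counts over the gate as the limit. Pfkfb4 (-2.85) fell under both scalings. Pfkp (-0.97), Gpi1 (-0.83), Hk2 (-0.73) and Gapdh (-0.43) fell with TMM only, and with total counts Gapdh was at 0.03, on the other side of 0. Macrophage marker RNA in this gate was at 7.93%, 6.72% and 7.69% of the macrophage level in the PBS, day 1 and day 7 libraries. Stromal markers summed to 1335, 871 and 1549 CPM there, against 48.3, 175 and 376 in macrophages, and their part in the difference was not tested.

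Across the treatment groups only counting error can be given, since each is 1 library, and day, tumour age, sort and library cannot be told apart from cisplatin. The 3 comparisons share the PBS library. A member was called higher or lower when its ratio was 1.5-fold or more and the 95% counting interval left out equality, among genes with at least 20 UMIs over both libraries. In the macrophages 5, 6 and 4 members were higher on days 1, 3 and 7 than in PBS and 0, 1 and 6 were lower, of 32, 31 and 32 with enough UMIs. Of all genes 14.8%, 15.6% and 13.6% were higher and 4.44%, 15.2% and 15.4% lower, so the higher counts lie near the background, and the lower count on day 3 is below it. Median log2 ratios over the members were 0.06, 0.12 and -0.19. Over all kept cells, 5, 6 and 5 members were higher and 0, 1 and 5 lower, beside 17.1%, 18.9% and 19.9% of all genes higher and 3.84%, 15.3% and 12.0% lower.

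**Figure D5:**
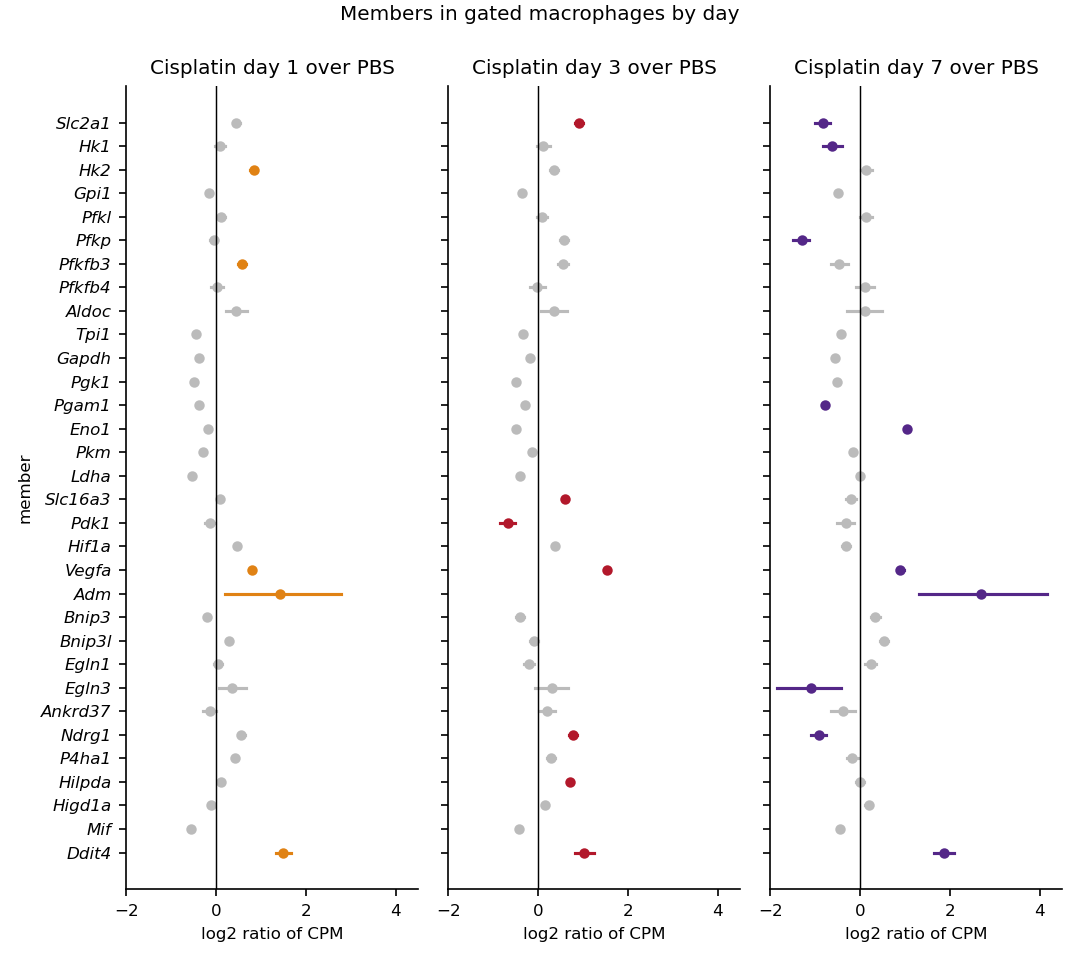
Log2 ratio of CPM in gated macrophages of the day 1, day 3 and day 7 cisplatin libraries over those of the PBS library, for each member with at least 20 UMIs over both libraries, with exact 95% counting intervals as lines. Coloured points are past 1.5-fold and have intervals without 0, and Vegfa and Ddit4 are coloured to the right of 0 on all 3 days.

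Vegfa and Ddit4 were called higher on every day. In macrophages Vegfa was at 84.9, 147, 246 and 158 CPM in PBS and on days 1, 3 and 7, with log2 ratios to PBS of 0.80 (interval 0.74 to 0.85), 1.53 (interval 1.47 to 1.59) and 0.90 (interval 0.82 to 0.98). Ddit4 was at 7.29, 20.7, 14.9 and 26.6, with log2 ratios of 1.5 (interval 1.33 to 1.68), 1.03 (interval 0.81 to 1.25) and 1.87 (interval 1.64 to 2.09). Within Arg1 Cxcl3 macrophages Vegfa was at 215, 324, 496 and 468, and within Cd300e macrophages at 29.6, 44.7, 90.0 and 93.5. Each macrophage subset with at least 20 cells in both libraries, and the macrophages in no subset gate, were also given equal weight. The log2 ratio of Vegfa was then 0.47 on day 1 and that of Ddit4 0.49 on day 3, both under the 1.5-fold limit. The other 4 ratios stayed past it.

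Of the 12 glycolytic enzyme genes 1, 0 and 1 were called higher in macrophages on days 1, 3 and 7 and 0, 0 and 3 lower. Slc2a1 was at 49.1, 67.0, 92.7 and 27.5 CPM in macrophages in PBS and on days 1, 3 and 7, called higher on day 3 (log2 0.92, interval 0.83 to 1.00) and lower on day 7 (log2 -0.83, interval -1.0 to -0.67). Ndrg1 followed the same course at 49.8, 73.6, 85.1 and 26.3, with log2 ratios of 0.77 on day 3 and -0.92 on day 7. Hk2 was at 46.9, 83.9, 60.0 and 51.7 and called higher on day 1 (log2 0.84, interval 0.77 to 0.91). Its paralog Hk1 was at 26.4, 28.0, 28.7 and 17.2 and called lower on day 7 (log2 -0.62, interval -0.84 to -0.40). Pfkp was at 58.9, 56.9, 87.9 and 23.9, with a log2 ratio on day 7 of -1.30 (interval -1.48 to -1.13), the lowest of the members tested. Pfkfb3 was at 33.4, 50.1, 48.9 and 24.3 and just past the limit on day 1 (log2 0.59, interval 0.50 to 0.68). Also called on day 3 were Slc16a3, at 81.1, 86.3, 122 and 70.7, and Hilpda, at 107, 115, 175 and 107, as higher and Pdk1, at 29.6, 26.9, 18.5 and 23.7, as lower (log2 0.59, 0.71 and -0.68 on that day). With equal weight for each subset only Vegfa and Hilpda of the members higher on day 3 kept their call, while Slc2a1 (log2 0.52), Slc16a3 (0.23), Ndrg1 (0.34), Ddit4 and Pdk1 (-0.42) lost it. So did Hk2 (0.46), Pfkfb3 (0.58) and Vegfa on day 1 and Hk1 (-0.50) on day 7. The day 3 macrophages held 653 inflammatory monocyte cells, against 19 in PBS, too few for this gate to enter the weighting. The resident-like, Cx3cr1, Lyz1 and Nos2 gates did not enter it on day 3 either, so it does not hold cell makeup fixed. In the macrophages in no subset gate, Slc2a1 was called higher on day 3 (log2 0.78). There 4 members were called higher and 2 lower, beside 14.2% and 13.3% of all genes.

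On day 7 Eno1 stood apart from the enzymes beside it in the pathway. It was at 298, 264, 212 and 611 CPM in macrophages in PBS and on days 1, 3 and 7, a log2 ratio of 1.04 (interval 0.99 to 1.08) on day 7. Pgam1 was lower there, at 554, 429, 456 and 323 (log2 -0.78, interval -0.83 to -0.73), and Pkm, at 1101, 905, 999.7 and 990.0, was not called (log2 -0.15). The same gap in Eno1 was seen in lymphocytes, at 623 CPM on day 7 against 326 in PBS, and in Cdkn2a-positive Ptprc-negative cells, at 1208 against 381. Arg1 Cxcl3, cycling, resident-like and Cd300e macrophages and those in no subset gate had it too, with log2 ratios between 0.59 and 1.28. Eno1b, a retrogene copy, was at 2.98 in day 7 macrophages against 3.08 in PBS. Egln3 was at 3.54, 4.56, 4.37 and 1.66, lower on day 7 (log2 -1.10, interval -1.84 to -0.42). Adm was called higher on days 1 and 7, from only 8, 23, 2 and 13 UMIs in macrophages in PBS and on days 1, 3 and 7. Over all kept cells Bnip3l, at 76.9, 97.6, 77.7 and 121, was also called higher on day 7 (log2 0.66, interval 0.58 to 0.74). In macrophages Bnip3l was not called on that day (log2 0.54). Erythroid markers summed to 3.33, 2.66, 0.470 and 193 and stromal markers to 48.3, 175, 81.5 and 376 CPM in macrophages in PBS and on days 1, 3 and 7, and their part in the day 7 values was not tested.

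Several enzyme genes and Mif lay below PBS but within 1.5-fold. Gapdh was at 2158, 1667, 1905 and 1475 CPM in macrophages in PBS and on days 1, 3 and 7, Tpi1 at 536, 392, 422 and 400.1 and Pgk1 at 450.1, 322, 319.8 and 317. For Ldha the levels were 704, 482, 533 and 700.1, and for Mif 811, 552, 605 and 594. All 5 were below PBS, with log2 ratios between -0.55 for Mif on day 1 and -0.18 for Gapdh on day 3, except Ldha on day 7, whose interval held 0 (log2 -0.01, interval -0.04 to 0.03). Gpi1 was at 336, 302, 261 and 239 and Hif1a at 128, 178, 165 and 103. Bnip3 was at 75.0, 65.6, 56.7 and 95.1 and Egln1 at 47.0, 48.5, 41.0 and 55.4. Pkm and Bnip3l, given above, had no call in macrophages on any day. Nor had Pfkl, Pfkfb4, Aldoc, Ankrd37, P4ha1 and Higd1a, whose log2 ratios lay between -0.38 and 0.46.

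The split of these calls changed with the scaling and with the weight given to each subset. With TMM scaling, which shifts the median of all genes by -0.12 on the log2 scale for day 1 macrophages, 4 members were higher and 3 lower on day 1. With equal weight for each subset the day 1 split was 2 higher and 3 lower. Over all kept cells TMM gave 4 higher and 4 lower on day 1 (shift -0.14). Totals without mitochondrial, ribosomal and haemoglobin genes gave 5 higher and 5 lower on day 3 (shift -0.10).

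Lymphocytes and Cdkn2a-positive Ptprc-negative cells had their own courses. In lymphocytes 1, 0 and 2 members were higher on days 1, 3 and 7 than in PBS and 1, 6 and 10 were lower, of 29, 29 and 27 with enough UMIs. Of all genes 5.96%, 6.3% and 13.4% were higher and 3.05%, 4.22% and 9.62% lower. Slc2a1 in lymphocytes was at 128, 103, 89.9 and 23.9 CPM in PBS and on days 1, 3 and 7 (log2 -2.42, interval -3.57 to -1.41 on day 7). Gapdh was at 2245, 1585, 1799 and 1150.0 (log2 -0.96, interval -1.13 to -0.80 on day 7) and Pgam1 at 425, 300.0, 278 and 212. Hif1a, Tpi1, Pfkp, Hk2, Egln3, Ndrg1 and P4ha1 were the other members called lower on day 7, and Eno1 and Vegfa were the 2 called higher. On day 3 Tpi1, Pgam1, Egln3, Ndrg1, P4ha1 and Ddit4 were lower. On day 1 Slc16a3 was higher, at 79.4, 144, 75.9 and 97.8 (log2 0.86, interval 0.27 to 1.49), and Mif lower, at 621, 408, 458 and 472. The makeup of the gate moved with these values, with 3, 31, 54 and 18 CD8 T cells and 5, 22, 56 and 11 gamma-delta T cells in PBS and on days 1, 3 and 7, beside the regulatory T cells given above. Natural killer and ILC1 markers summed to 408, 206, 267 and 981 CPM. Their part in the day values was not tested.

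In Cdkn2a-positive Ptprc-negative cells no member was called on day 1 and 3 were higher and 2 lower on day 7, of 27 with enough UMIs on each day. Of all genes 6.65% and 14.0% were higher and 3.63% and 9.75% lower on those days. Eno1 was at 381, 451 and 1208 CPM in PBS and on days 1 and 7 (log2 1.67, interval 1.43 to 1.91 on day 7). Slc2a1 was at 103, 93.4 and 40.3 (log2 -1.35, interval -1.99 to -0.71 on day 7), the same direction as in macrophages and lymphocytes. Higd1a (0.62) and Ddit4 (1.06) were also higher and Hif1a (-0.74) lower on the log2 scale, from 26 to 89 cells a library.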

How the data were processed

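The deposited files hold counts, whole numbers of UMIs per gene and cell barcode in 4 libraries, made by the authors, with mm10, Cell Ranger 3.1.0 and Seurat 3.1.2 named in the submitters' processing notes. Total counts were 59915831 in PBS and 82493626, 36587207 and 16153484 on days 1, 3 and 7. Barcodes were kept from 500 genes upward when 10% or less of their counts were mitochondrial. Scrublet's automatic threshold marked no barcode, so the highest doublet scores were removed, at 0.8% per 1000 barcodes. Counts were summed per library and gate. Gates need at least 20 cells in a library, macrophage subsets can overlap, and gate limits were set from marker genes after the files had been seen. Gate comparisons used edgeR 4.0.16 (quasi-likelihood, TMM, library as block, Benjamini-Hochberg over all genes tested) with R 4.3.3, and DESeq2 1.42.0 as an alternative. Day comparisons used exact conditional binomial 95% intervals, which cover counting error only. The fits and ratios were tested on simulated data. Promoter windows are RefSeq's. Members with a 1.5-fold difference from PBS or a call in a gate comparison were given by value, the others by range, and up to 4 genes of each further list by size. The 32 genes, the further lists, the doublet rule and the comparisons were chosen with earlier results of these data known. Thinning before gating and total counts without TMM were chosen after seeing the data.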

Additional observations from a re-analysis of the deposited data

Results flagged for a closer look

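2 members were called in both macrophages and lymphocytes on day 3 after cisplatin, in opposite directions. Ddit4 had a log2 ratio of day 3 over PBS of 1.03 (interval 0.81 to 1.25) in macrophages and -0.88 (interval -1.38 to -0.36) in lymphocytes. Ndrg1 had 0.77 (interval 0.69 to 0.86) in macrophages and -0.59 (interval -1.12 to -0.03) in lymphocytes. The differences between the 2 cell sets were not tested, since each group is 1 library, and the intervals cover counting error only.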

How the results depend on the processing

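With no replicate block (library) the number of members called was 0 for Arg1 Cxcl3, Cd300e, Cx3cr1, resident-like, Lyz1 and inflammatory monocyte gates, 1 for osteoclast-like macrophages and 14 for lymphocytes. The gate comparisons pair the 2 cell sets of each library in this block, while the days have 1 library each and no pairing. Leaving out 1 library gave between 26 and 30 members called for Arg1 Cxcl3, 10 to 19 for Cd300e, 14 to 21 for Cx3cr1, 1 to 8 for resident-like, 1 to 3 for Lyz1, 11 to 17 for osteoclast-like, 14 to 16 for cycling, 0 to 6 for inflammatory monocytes, 15 to 20 for lymphocytes and 19 to 21 for Cdkn2a-positive Ptprc-negative cells. The lowest values for Cd300e, resident-like and inflammatory monocytes came without the day 1 library. Lyz1 gave 3 without the day 1 library and 2 without PBS. With cells thinned to 3000 UMIs before gating, 8 members were called for Cd300e, 12 for Cx3cr1, 2 for resident-like and 4 for osteoclast-like macrophages, and the log2 ratio of Mif in cycling macrophages was -0.0006 (adjusted p = 0.998, edgeR). The cause was not tested. With total counts in place of TMM, chosen after seeing the data, 2 members were called for Lyz1, and the log2 ratio of Gapdh in Cdkn2a-positive Ptprc-negative cells was 0.0258. DESeq2 called 2 members for resident-like, 0 for Lyz1 and 2 for inflammatory monocytes, and edgeR with DESeq2's size factors called 2 for Lyz1. Stricter gates could not be fitted for Lyz1 and inflammatory monocytes, nor thinned cells for these and the Cdkn2a-positive Ptprc-negative cells.

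For the days, a 2-fold limit left 2, 2 and 4 members called over all kept cells on days 1, 3 and 7 and 2, 2 and 5 in macrophages. Over all kept cells TMM and DESeq2's size factors each called 8 members on day 1. In macrophages 3 were called on day 1 with doublets kept, and with equal weight for each subset the day 1 median over the members was -0.18 and 4 members were called on day 3. The share of macrophages with Egln3 after thinning to 3000 UMIs was 1.42% on day 1 and 1.29% in PBS. Counted over named members and alternatives, 39 day ratios moved out of their counting interval and 266 did not. The 266 include alternatives that change only the fold limit or the minimum of UMIs, under which a ratio cannot move. Among gate ratios 277 lost their call, 1455 did not and 2 changed sign. With 1 library per group, no spread between animals can be given, and members with under 20 UMIs over both libraries have no call.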

Other observations

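Other genes of the pathways were also counted by day in macrophages, where 14.8%, 15.6% and 13.6% of all genes were called higher on days 1, 3 and 7 than in PBS and 4.44%, 15.2% and 15.4% lower. Of 29 further HIF and hypoxia genes, 6, 7 and 3 were called higher on days 1, 3 and 7 and 0, 2 and 5 lower. Lox, a collagen crosslinking enzyme gene, had log2 ratios to PBS of 1.54 on day 1, 0.84 on day 3 and 2.62 on day 7. Nfil3 reached 1.51 and Bhlhe40 1.07 on day 3, both genes of transcription factors, and Tfrc, the transferrin receptor gene, was at -1.14 on day 7. Nuclear genes of oxidative phosphorylation had medians of -0.27, -0.37 and -0.18 on days 1, 3 and 7 over 25 genes, of which 0, 4 and 3 were called lower and 0, 0 and 2 higher. The 3 comparisons share the PBS library, and stromal marker RNA was 48.3, 175, 81.5 and 376 CPM in macrophages in PBS and on days 1, 3 and 7, whose part in the Lox values was not tested.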
